A study of Rattus norvegicus with 6 samples.

Results

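The apolipoproteins are the protein part of the lipoproteins, the particles that carry cholesterol and triglyceride in blood. The members were the 10 genes Apoa1, Apoa2, Apoa4, Apoa5, Apob, Apoc1, Apoc2, Apoc3, Apoe and Apom, read from every probe whose accession matched one of them in a RefSeq gene table. The 10 genes had 15 of the 61657 probes on the array and were 10 of the 15284 genes that could be named. Apob had 5 probes, Apoc3 had 2 and each of the other 8 genes had 1.

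Liver RNA came from 6 male Sprague-Dawley rats, an outbred stock bought at 5 weeks of age, with 1 array for each animal. The tBA group of 3 rats received tert-butyl alcohol, a tertiary alcohol and common industrial solvent, dosed at 1000 mg/kg/day. The vehicle group of 3 rats received the carrier alone, which is water in one label and corn oil in another. The dosing time is likewise given both as 28 days and as 9 weeks. The question put to the apolipoprotein genes was whether their liver mRNA differed between these groups.

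Apob holds the triglyceride-rich VLDL particle together as the liver secretes it. Apoa1 and Apoa2 form HDL, the particle that takes cholesterol back to the liver. Smaller apolipoproteins move between particles and decide how fast they are used: Apoc2 activates lipoprotein lipase, Apoc3 and Apoc1 slow the clearance of particles, and Apoe is the ligand by which liver cells take up remnants.

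All values are log2 signals relative to the 75th percentile of their own array, and differences are tBA minus vehicle on that scale. They were tested with limma, a linear model that shares information on spread across genes, fitted over 11094 genes with p-values adjusted over all of them by the Benjamini-Hochberg method. A gene was called at an adjusted p under 0.05 and was read from its brightest probe. All 15 apolipoprotein probes were well above background on all 6 arrays. No spot was saturated, although Apoe, with a spot signal of up to 609424 against a saturation value of 778870, came closest to it among the members. Levels of different probes cannot be compared with each other.

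None of the 10 apolipoprotein genes was called by limma (lowest adjusted p = 0.268), where 0.0361% of all tested genes were. At an unadjusted p under 0.05 there was 1 member, Apoa4, where 16.0% of all genes lay under that limit. By direction, 8.18% of all genes were higher and 7.87% lower at that limit, 907 and 873 genes, which became 1600 and 542 with median normalization. Of the 10 members, 6 were higher and 4 lower with tBA, and their median difference was 0.057, beside 0.002 over all 11094 genes. That median was -0.015 with quantile normalization and 0.13 with median normalization; Apob was lower under the first and Apom higher under the second. The median size of a member's difference, leaving the sign aside, was 0.13, beside 0.16 for all genes. The groups did not overlap in 2 members, Apoa4 and Apoe, and in 24.2% of all genes.

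**Figure D1:**
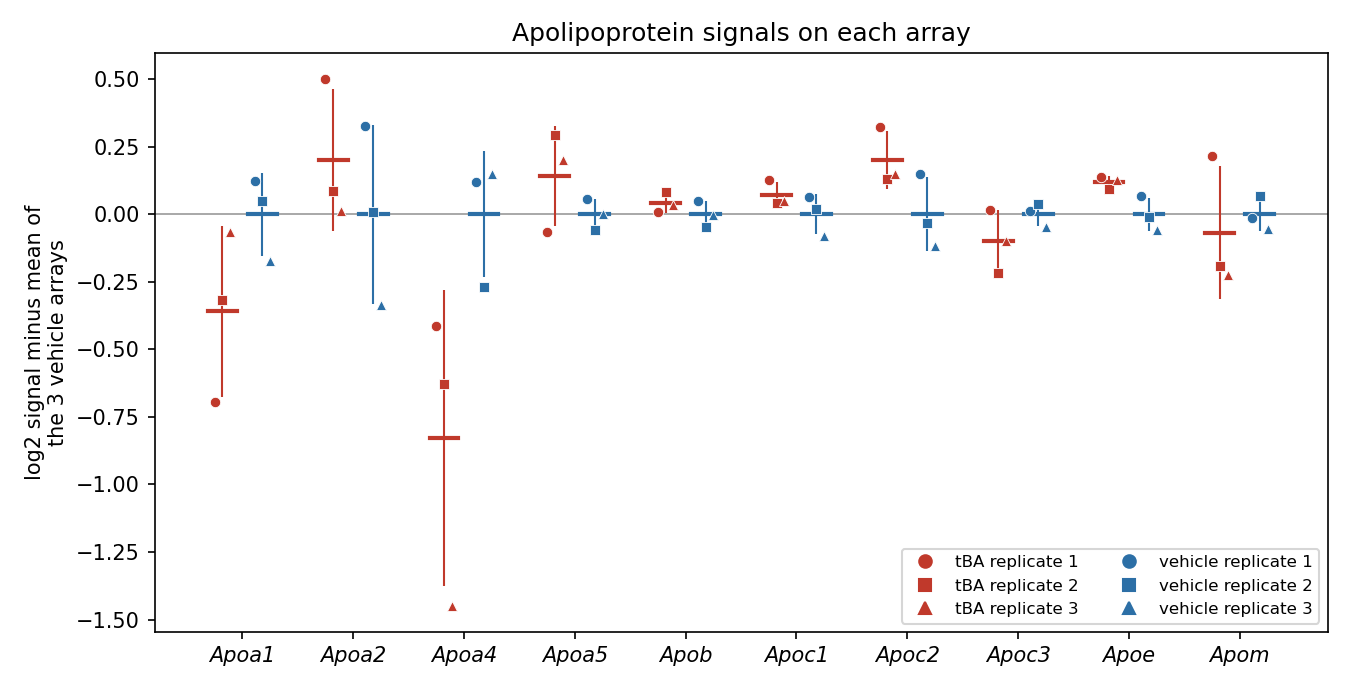
Signal of each apolipoprotein gene on each array, as the log2 signal minus the mean of the 3 vehicle arrays (y axis), with tBA arrays in red to the left of vehicle arrays in blue; symbols mark replicates 1 to 3, horizontal bars the group mean and vertical bars 1 SD (n = 3). The tBA values of Apoa4 run down to -1.45, and Apob, Apoc1 and Apoe stay within a narrow band.

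Apoa4, a protein of chylomicrons and HDL that the intestine and, in rodents, the liver secrete, had the largest difference of the 10. Its probe read 8.44, 8.23 and 7.41 on tBA arrays 1 to 3, against 8.97, 8.59 and 9.002 on the vehicle arrays. The 3 tBA values lay below all vehicle values, as in 11.4% of all genes, with a gap of 0.14 between the groups. The mean was 8.02 ± 0.55 with tBA and 8.85 ± 0.23 with vehicle (SD, n = 3 each). The difference was -0.83 (SE 0.28, 95% interval -1.52 to -0.14), a level 0.56 times that of vehicle, and was not called (limma, adjusted p = 0.268). The exact two-sided permutation test gave p = 0.1, the smallest that 3 arrays against 3 allow.

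Much of the Apoa4 difference lay in tBA replicate 3, the lowest array by far, without which it was -0.52 (adjusted p = 0.337 in limma). The unadjusted p was 0.0258 with all arrays, 0.0715 without vehicle replicate 1 and 0.0721 without vehicle replicate 3. In the limma fit over all probes the unadjusted p was likewise 0.0258 with all arrays. There it was 0.0273 without tBA replicate 3, where the SE fell from 0.28 to 0.17, and 0.0136 without tBA replicate 1. It was 0.0366 without tBA replicate 2 and 0.0281 without vehicle replicate 2. Slide 1 held tBA replicate 1 and the 3 vehicle arrays, and slide 2 held tBA replicates 2 and 3. Slide 2 was also scanned on another day than slide 1, so slide and scan day cannot be told apart. Within slide 1, where tBA replicate 1 stands alone, Apoa4 was at -0.41 (adjusted p = 0.675), and at -0.41 with slide as a fixed block (adjusted p = 0.782). The tBA arrays stayed below every vehicle array for Apoa4 under each of the 6 other scalings of the signal. With the authors' table and with a common floor for all arrays, the difference was -0.83, as reported. Of 8 genes listed as enterocyte markers, 5 were tested. Their summed signal, in units of the array's 75th percentile, was 4.17 to 12.7 with tBA and 8.30 to 14.9 with vehicle. Whether that signal came from gut cells was not tested. Of the 5, 3 were higher and 2 lower with tBA, at a median of 0.12, and the groups overlapped in each. The adhesion protein Cdh17, which had the largest signal in that sum, was at -0.92 (adjusted p = 0.468). The gut transcription factor Cdx2, a dim probe with means of -4.24 with tBA and -5.01 with vehicle, was at 0.78 (adjusted p = 0.294). Vil1, the microvillus protein villin, was not well above background on all arrays of either group, and the part of these markers in the Apoa4 result was not tested. In bulk tissue, fewer cells of a type and less RNA per cell cannot be told apart.

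The 5 named genes whose 6 values were most like those of Apoa4, each centred on its own mean, were Copg2, Atf3, Spata2L, Rcor2 and Gstm3. Copg2, a subunit of the coat of Golgi transport vesicles, was at a root mean square distance of 0.067 from Apoa4 over the 6 arrays. Atf3, a transcription factor of the stress response, was at 0.13, Spata2L at 0.15, the corepressor Rcor2 at 0.15 and the glutathione transferase Gstm3 at 0.17. Because they were picked for likeness to Apoa4, differences of its sign and near its size follow from the choice. Their differences ran from -0.80 for Copg2 to -0.61 for Gstm3, and none was called (adjusted p = 0.194 to 0.35 in limma).

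Apoa4 lies between Apoc3 and Apoa5 in the RefSeq gene order of the GRCr8 assembly, in the run Apoa1, Apoc3, Apoa4, Apoa5 on chromosome 8. The promoters of Apoa4 and Apoa5 are shown because these neighbours had differences of opposite sign over the 6 arrays. Each runs from 250 bases before to 50 after the annotated start, 5′ to 3′, from RefSeq on GRCr8, at chr8:55435529-55435828 on the plus strand for Apoa4 and at chr8:55457621-55457920 on the plus strand for the first of the starts listed for Apoa5. Capitals mark matches, on either strand, to the TATA box TATAAA, to CACGTG, known as the E-box, to CCAAT, known as the CCAAT box, to the short motif CAAAG, or to the longer CAAAGTCCA, a form of the sites bound by the receptor Hnf4a, which contains the short motif.
Apoa4: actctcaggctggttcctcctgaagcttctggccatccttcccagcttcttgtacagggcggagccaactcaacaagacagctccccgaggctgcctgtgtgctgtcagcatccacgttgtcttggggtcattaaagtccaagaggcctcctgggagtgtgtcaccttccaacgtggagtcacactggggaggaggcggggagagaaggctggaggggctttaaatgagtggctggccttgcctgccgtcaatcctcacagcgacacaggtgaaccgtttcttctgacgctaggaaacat
Apoa5: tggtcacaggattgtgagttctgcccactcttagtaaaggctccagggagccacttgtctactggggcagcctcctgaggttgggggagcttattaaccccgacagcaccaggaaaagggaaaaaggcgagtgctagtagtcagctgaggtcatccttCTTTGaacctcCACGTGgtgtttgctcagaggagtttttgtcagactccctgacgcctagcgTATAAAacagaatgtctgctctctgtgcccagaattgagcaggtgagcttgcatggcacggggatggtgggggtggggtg

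The Apoa4 window held none of the 5 motifs, which says only that these letters are not in it. The Apoa5 window held TATAAA with its first base at position -30 from the start, CACGTG at -81 and CAAAG, on the reverse strand, at -92. Among the 33469 promoters of the table, 14.2% held TATAAA, 6.42% CACGTG, 53.8% CAAAG, 37.5% CCAAT and 0.391% CAAAGTCCA. Of the members, 6 had at least 1 promoter in the table, Apoa4, Apoa5, Apoc1, Apoc2, Apoe and Apom. TATAAA was in promoters of 2 of these genes, Apoa5 and Apoc2.

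The structural proteins of HDL differed in sign. Apoa1, the main protein of HDL and an activator of the cholesterol-esterifying enzyme Lcat, read 7.70, 8.07 and 8.32 with tBA and 8.51, 8.44 and 8.22 with vehicle. tBA replicates 1 and 2 were below every vehicle array and tBA replicate 3 was within the vehicle range, though all 3 were below it with normexp background correction. The Apoa1 difference was -0.36 (SE 0.18, 95% interval -0.79 to 0.07, adjusted p = 0.368 in limma). Leaving out tBA replicate 1, the lowest array, gave -0.19 (adjusted p = 0.505), and slide as a fixed block, which rests on that array, gave -0.69 (adjusted p = 0.528). The tBA replicate with the lowest Apoa1 was the one with the highest Apoa4, and the reverse held for tBA replicate 3.

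Apoa2, the other structural protein of HDL, spread widely in both groups. It read 9.13, 8.71 and 8.64 with tBA, against 8.96, 8.64 and 8.29 with vehicle, and the groups overlapped. The difference was 0.20 (SE 0.21, 95% interval -0.31 to 0.71, adjusted p = 0.641). Leaving out vehicle replicate 1 gave 0.36 and leaving out vehicle replicate 3 gave 0.031, and the value was 0.50 within slide 1 and 0.049 without tBA replicate 1.

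Apom, which carries a sphingolipid signal on HDL, read 7.12, 6.71 and 6.67 with tBA and 6.89, 6.97 and 6.85 with vehicle. tBA replicate 1 was above all vehicle arrays and the other tBA arrays were below them, so the mean difference of -0.068 (SE 0.14, 95% interval -0.40 to 0.26) joined values on both sides. Within slide 1 and with slide as a fixed block, both from tBA replicate 1, Apom was at 0.21. The SD of Apom was 0.24 with tBA and 0.061 with vehicle, 4.03 times as large with tBA, and in 5 of the 10 members the tBA arrays had the larger SD, beside 54.7% of all genes.

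Apob, the scaffold of VLDL and LDL, had the smallest difference of the 10 on its brightest probe. Its brightest probe read 8.28, 8.35 and 8.31 with tBA and 8.32, 8.22 and 8.27 with vehicle. The difference was 0.042 (SE 0.076). Its 95% interval of -0.14 to 0.23, for this probe and scaling alone, ran from 0.91 to 1.17 times the vehicle level. Of the other 4 Apob probes, 3 were higher and 1 lower, between -0.027 and 0.13, and none was called over all 37647 probes, of which 0.112% were. The SEs of those 4 probes were 0.12 to 0.14. With quantile normalization the brightest Apob probe was at -0.061, and with median normalization at 0.12. Among the proteins that act on Apob, Mttp, which loads lipid onto it, was at 0.17 (SE 0.15, adjusted p = 0.570). Apobec1, the enzyme that edits Apob mRNA in rat liver, was at -0.39 (SE 0.40, adjusted p = 0.631), and its groups overlapped.

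**Figure D2:**
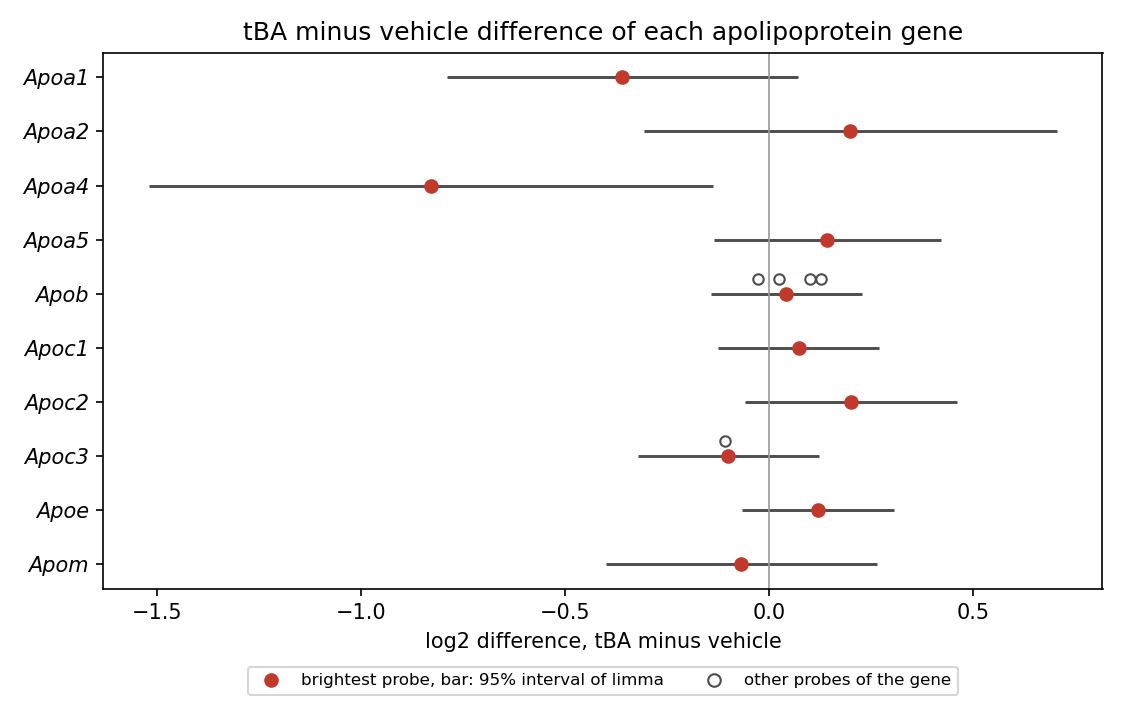
Difference of tBA minus vehicle (x axis, log2) for each apolipoprotein gene, with the brightest probe in red, its 95% interval in limma as a bar, and other probes of the gene as open circles. The interval of Apoa4, -1.52 to -0.14, is the one that leaves out 0 before adjustment, and the 5 Apob probes lie between -0.027 and 0.13.

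The proteins that govern lipoprotein lipase, the enzyme that empties triglyceride from particles in blood, were Apoc2, Apoa5 and Apoc3. Apoc2, its obligate activator, read 8.73, 8.53 and 8.55 with tBA and 8.55, 8.37 and 8.29 with vehicle. Vehicle replicate 1 overlapped the tBA arrays and the other vehicle arrays were below them. The Apoc2 difference was 0.20 (SE 0.11, 95% interval -0.06 to 0.46, adjusted p = 0.392 in limma), and 0.32 within slide 1.

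Apoa5, a liver protein that promotes triglyceride clearance, read 8.20, 8.56 and 8.46 with tBA and 8.32, 8.21 and 8.27 with vehicle. tBA replicates 2 and 3 were above the vehicle range and tBA replicate 1 just below it. The difference was 0.14 (SE 0.11, 95% interval -0.13 to 0.42, adjusted p = 0.547), 0.25 without tBA replicate 1, 0.068 without tBA replicate 2, 0.063 with quantile normalization and -0.065 within slide 1.

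Apoc3, which inhibits the lipase and the uptake of remnants, had 2 probes of the same sign. The brighter read 9.74, 9.51 and 9.63 with tBA and 9.74, 9.76 and 9.68 with vehicle, and its difference was -0.10 (SE 0.091, 95% interval -0.32 to 0.12, adjusted p = 0.597). The other probe was at -0.11 (SE 0.10, adjusted p = 0.604 over all probes). On both probes tBA replicate 2 was the lowest of the 6 arrays, and without it the brighter probe was at -0.041. Within slide 1 Apoc3 was at 0.016.

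Apoe and Apoc1 are neighbours on chromosome 1, and both were higher on average with tBA. Apoe, the remnant ligand, read 10.01, 9.965 and 9.999 with tBA and 9.94, 9.86 and 9.82 with vehicle. All tBA values were above all vehicle values, as in 12.8% of all genes, with a gap of 0.027. The Apoe difference was 0.12 (SE 0.077, 95% interval -0.07 to 0.31), 1.09 times the vehicle level, and was not called (adjusted p = 0.462). With normexp background correction it was 0.071 and the groups overlapped. Macrophages also make Apoe: of 8 macrophage markers tested, 7 were lower and 1 higher with tBA, at a median of -0.20, and their summed signal was 100.7 to 107.4 with tBA and 101.2 to 128.4 with vehicle. Clec4f had by far the largest signal in this sum and was at -0.034, and the value of 128.4 was that of vehicle replicate 2. The part of macrophages in the Apoe signal was not tested.

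Apoc1, a small protein that slows the uptake of VLDL remnants, read 9.84, 9.75 and 9.76 with tBA and 9.77, 9.73 and 9.63 with vehicle. The difference was 0.073 (SE 0.081, 95% interval -0.13 to 0.27, adjusted p = 0.667), 0.030 with quantile normalization, 0.13 with normexp and 0.15 with median normalization. Apoc4, a further apolipoprotein that lies between Apoc2 and Apoc1, read 8.17, 7.85 and 7.81 with tBA and 7.92, 7.55 and 7.19 with vehicle, at 0.39 (SE 0.21, adjusted p = 0.390). Leaving out vehicle replicate 3, the lowest array for both genes, gave 0.032 for Apoc1 and 0.20 for Apoc4.

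By place in the genome, in the run Apoa1, Apoc3, Apoa4 and Apoa5, 3 of 4 were lower, with a median of -0.23. In the run of Apoe, Apoc1 and Apoc2, 3 of 3 were higher, with a median of 0.12. No test of this difference between the runs was made, and the signs of Apoc3 and Apoa5 turned with slide as a fixed block.

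Several members had their extreme values on the same arrays. Among tBA arrays, replicate 1 had the highest value for 7 of the 10 members, Apoa2, Apoa4, Apoc1, Apoc2, Apoc3, Apoe and Apom, and the lowest for the other 3, Apoa1, Apoa5 and Apob. Over all genes that array was the highest of its group in 37.3%. Among vehicle arrays, replicate 1 was the highest for 7 members, beside 29.8% of all genes, and replicate 3 the lowest for 7, beside 35.3%. Apoa2, Apoc1, Apoc2 and Apoe had their highest value on replicate 1 in both groups. Relative to each gene's vehicle mean, the median of the 10 members was 0.072, 0.062 and 0.023 on tBA arrays 1 to 3, against 0.064, -3.2e-05 and -0.055 on vehicle arrays 1 to 3. Vehicle replicate 1 lay within the range of the tBA arrays.

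**Figure D3:**
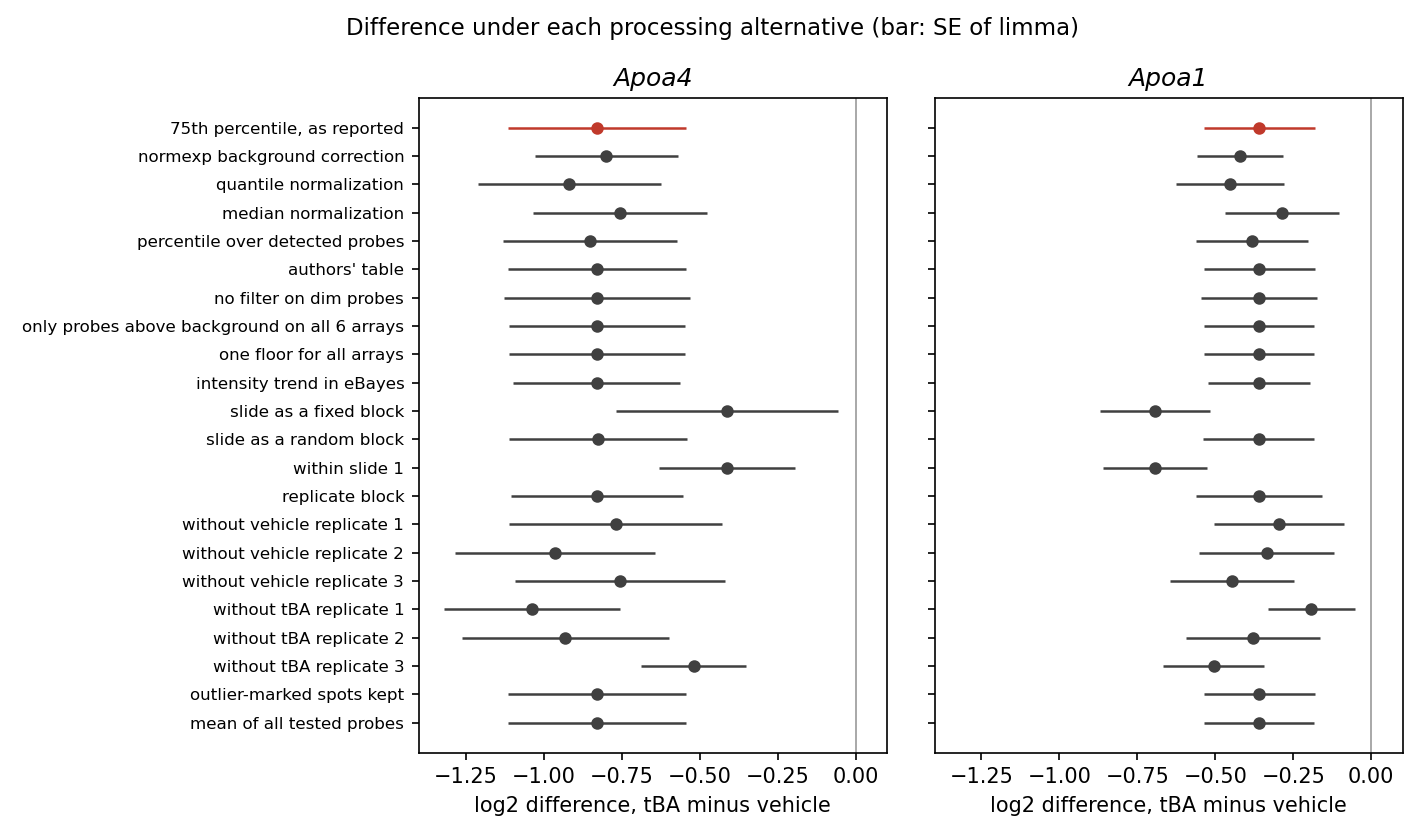
Difference of tBA minus vehicle (x axis, log2) of Apoa4 and Apoa1 as reported (red, top) and under each alternative in turn, with bars of 1 SE in limma. Both stay below 0 throughout, Apoa4 between -1.04 and -0.41 and Apoa1 between -0.69 and -0.19. Other filters, a common floor, an intensity trend, the replicate block and kept outlier-marked spots leave both points in place.

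Genes around the apolipoproteins were read from 6 lists by role, and 0 of their genes were called by limma. Further apolipoproteins had 7 of 9 higher and 2 lower, at a median of 0.16. Besides Apoc4, the nearest to the threshold were Apoo, a mitochondrial protein named for its similarity to apolipoproteins, at 0.30 (SE 0.092, adjusted p = 0.241), Saa4, a constitutive HDL protein, at 0.16 (adjusted p = 0.370), and Apoh, which binds phospholipids, at 0.17 (adjusted p = 0.402). Of these 9, Apoo was higher at an unadjusted p under 0.05 in limma, as were 8.18% of all genes.

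In the list of assembly and secretion 10 of 15 were higher and 5 lower, at a median of 0.081. Sar1b, the GTPase of the transport vesicles that carry VLDL out of the endoplasmic reticulum, read 5.66, 5.69 and 5.49 with tBA and 5.31, 5.15 and 5.06 with vehicle. The difference of Sar1b was 0.44 (SE 0.10, adjusted p = 0.194). P4hb, the partner subunit of Mttp, was at -0.26 (SE 0.085, adjusted p = 0.259), Pdia3, a related disulfide isomerase, at -0.24 (SE 0.082, adjusted p = 0.269), and Pcsk7, a protease of the secretory route, at 0.16 (adjusted p = 0.402). The groups did not overlap in these 4 of the 15 genes, a share near the 24.2% of all genes.

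Genes that remodel HDL had 2 of 10 higher and 8 lower, at a median of -0.079. Of these, 0 had an unadjusted p under 0.05 in limma, beside 16.0% of all genes. Abca1, which loads cholesterol onto Apoa1, was at -0.39 (SE 0.18, adjusted p = 0.349), and Lcat was at -0.085. Npc1, a cholesterol exporter of lysosomes, was at -0.26, the HDL receptor Scarb1 at 0.18 and the lipid transporter Abca7 at -0.14. Leaving out tBA replicate 2 gave -0.12 for Npc1, leaving out tBA replicate 1 gave -0.0087 for Abca7, leaving out vehicle replicate 3 gave -0.26 for Abca1, and slide as a fixed block gave 0.019 for Scarb1. Among the regulators of triglyceride lipases 4 of 6 were higher and 2 lower, at a median of 0.14. Angptl4, an inhibitor of lipoprotein lipase, read 6.14, 6.40 and 6.10 with tBA and 6.10, 5.34 and 5.54 with vehicle, at 0.55 (SE 0.21, adjusted p = 0.291). Creb3l3, a liver transcription factor known in mice to act on Apoa4, was at 0.23 (adjusted p = 0.404) and Sel1l, a protein of endoplasmic reticulum quality control, at -0.077.

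In the list of lipoprotein receptors and clearance 5 of 10 were higher and 5 lower, at a median of 0.020. The heparan sulfate receptor Sdc1, a route of remnant uptake, was at -0.13 (SE 0.089, adjusted p = 0.480), and Mylip, a ubiquitin ligase that acts on lipoprotein receptors, at 0.26 (SE 0.21, adjusted p = 0.545). Leaving out vehicle replicate 1 gave 0.089 for Mylip, and leaving out tBA replicate 3 gave -0.073 for Sdc1.

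Transcription factors that act on apolipoprotein genes had 14 of 29 higher and 15 lower, at a median of -0.022. At an unadjusted p under 0.05 in limma, 2 were higher and 3 lower, where 8.18% of all genes were higher and 7.87% lower. Cebpa, a hepatocyte factor, was at -0.57 (SE 0.14, adjusted p = 0.195), Nr1d2, a clock repressor, at -0.73 (SE 0.20, adjusted p = 0.221), the xenobiotic receptors Nr1i2 and Nr1i3 at 0.27 and 0.89 (adjusted p = 0.269 and 0.271). Leaving out vehicle replicate 3, the lowest array for Nr1i3, gave 0.55. Hnf4a, the nuclear receptor that drives many apolipoprotein promoters, was at 0.21.

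**Figure D4:**
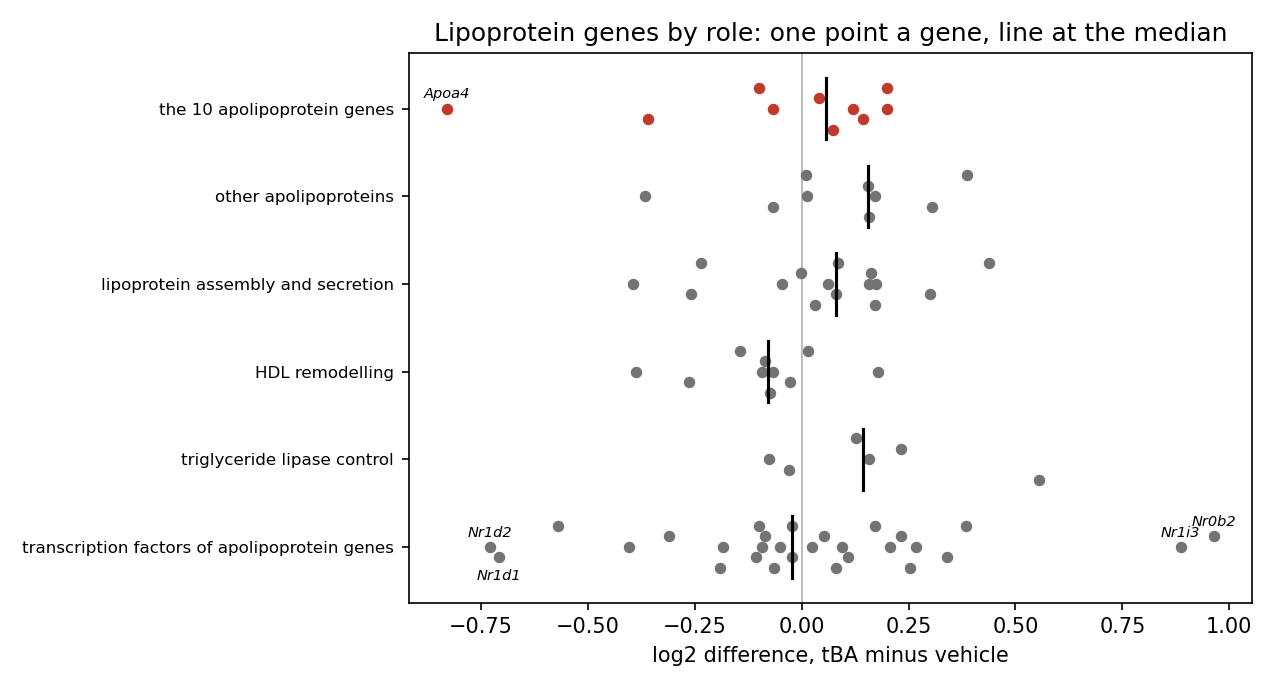
Differences of tBA minus vehicle (x axis, log2) for the 10 apolipoprotein genes (red, top row) and 5 of the lists of lipoprotein genes by role (grey), with 1 point a gene, a black line at each median, and names for genes beyond 0.7 in size. The medians lie between -0.079 and 0.16, and Apoa4 lies farthest to the left of the genes shown. The list of lipoprotein receptors and clearance is not in the figure, so this order does not cover it.

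Each array had 61.5% to 66.9% of its probes well above background, and correlations between arrays ran from 0.989 to 0.991 within a group and from 0.984 to 0.988 between groups. All 10 hepatocyte markers were tested, with 7 higher, 3 lower and a median of 0.038, and their summed signal was 6228 to 6446 with tBA and 6071 to 6458 with vehicle. Of 6 endothelial markers 4 were tested, and their summed signal was 50.8 to 53.2 with tBA and 43.1 to 48.7 with vehicle, without overlap. Kdr had by far the largest signal in this sum. It was at 0.22, with all tBA values above all vehicle values, as in 12.8% of all genes. Pecam1 was at 0.15, Lyve1 at 0.18 and Cdh5 at -0.038, and the groups overlapped in each. For stellate cells the summed signal was 10.4 to 12.4 with tBA and 10.4 to 14.6 with vehicle. The ranges likewise overlapped for markers of bile duct, fat, muscle, pancreas and red blood cells. The part of these cells in the results was not tested.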

How the data were processed

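The arrays were Agilent arrays read in the Cy3 channel alone, per the labels. The deposited intensity values were made by the authors with Feature Extraction 10.7.1.1 on an rn4 annotation, per the file headers, while the submitters' processing notes name version 10.7. The authors' deposited series table holds a linear ratio, the same signals divided by 1 number per array, 570.0 to 639.5, with column medians of 0.0981, 0.0949 and 0.0952 for tBA replicates 1 to 3 and 0.102, 0.102 and 0.0994 for vehicle replicates 1 to 3. Its genes are not centred, and its values run in the direction of the signal.

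Values here are log2 of the processed signal less the 75th percentile of the array, without control spots and with 3 to 16 outlier-marked spots per array set to missing. Tests covered the 37647 probes, and 11094 genes, that cleared background on every array of 1 group or both. Names came from RefSeq accessions of GRCr8, which matched 27460 probes. Tests used limma 3.58.1 in R 4.3.3, with the scripts tested on simulated data, and Python 3.11.15 with matplotlib 3.10.9 for figures. The replicates are separate animals as far as the labels tell. Alternatives were another background correction or scaling, the authors' table, other filters, an intensity trend, slide as a block or alone, a replicate block, the mean of probes, and leaving out each array. Normexp used the median signal, with an offset of 50. Keeping outlier-marked spots was chosen after seeing the data. Genes named are the 10 members, up to 4 of each list by smallest p, and the 5 most like the member with the smallest p, which also had the largest difference; genes known only by a locus number were passed over there. Mttp, Apobec1, Lcat, Hnf4a, Cdh17 and Cdx2 were added after their values were seen. Some genes that the rule names are not reported here. The members and lists were chosen with earlier results of these data known. The number of arrays limits the precision.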

Additional observations from a re-analysis of the deposited data

How the results depend on the processing

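The 10 apolipoprotein genes gave 0 calls under each of the 21 alternatives (lowest adjusted p = 0.204), as did the lists of lipoprotein genes (lowest adjusted p = 0.064, for Nr1d2 without tBA replicate 1). Apoa1, Apoa2, Apoa4, Apoc1, Apoc2 and Apoe kept their sign in all of them, and 9 of 210 member values turned. Many of these values could not turn. Other filters, a common floor, an intensity trend, the replicate block and kept outlier-marked spots left each member's difference as reported. The authors' table barely moved it. Slide as a fixed block gave the same differences as slide 1 alone. Apoa5 was at -0.065 and Apoc3 at 0.016 with slide as a fixed block and within slide 1, where tBA replicate 1 is the treated arm. Apom was at 0.21 in these fits, at 0.0061 with median normalization and between -0.21 and 0.012 without 1 array, the positive value without tBA replicate 3. Apob was at -0.061 with quantile normalization, and Sel1l at 0.0013 with slide as a fixed block and within slide 1. The median of the 10 members was -0.015 with quantile and 0.13 with median normalization; quantile normalization gives each array the same distribution, and centring on the median moved the median of all genes to 0.076. The cause of the other turns was not tested.

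Across the array, 42 probes and 4 genes were called. There were 18 probes and 0 genes with no filter on dim probes (1639 genes at an unadjusted p under 0.05), 0 probes and 2 genes with only probes above background on all 6 arrays (5634 probes at that limit), 64 probes with one floor for all arrays, 68 probes with an intensity trend, 20 probes and 1 gene with slide as a fixed block, 0 probes and 0 genes within slide 1 (2956 probes and 894 genes at that limit) and 0 genes with normexp (1853 genes at that limit). Without 1 array there were 6 to 45 probes (leaving out tBA replicate 2 gave 6, tBA replicate 3 gave 14, vehicle replicate 1 gave 22 and vehicle replicate 3 gave 25) and 0 to 8 genes (8 without tBA replicate 1, 2 without vehicle replicate 3, 0 without any 1 of the others). The replicate block left 6 probes and 0 genes (1416 genes at an unadjusted p under 0.05). It changed no apolipoprotein call, with Apoa4 at an adjusted p of 0.368. Over the tested probes, deviations of same-numbered arrays from their group means had r = -0.056, -0.064 and 0.014. With 3 arrays in each group these correlations cannot decide whether the numbers pair the animals, and the labels name no pairing. All p-values are from limma, apart from the permutation p of Apoa4.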
